A study of Mus musculus with 16 samples.

Results

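The genes described here encode the machinery with which a nerve terminal stores transmitter in vesicles, fuses those vesicles with its plasma membrane and takes their membrane back. They were chosen by name and fall into 8 roles: 3 synapsins, 8 vesicle membrane proteins, 6 synaptotagmins, 6 SNAREs and complexins, 6 active zone scaffold and priming genes, 4 genes of Rab3 and its effector, 4 genes of SNARE disassembly and folding, and 4 endocytosis genes. Matched by Ensembl identifier, they were 41 of the 22337 genes in the deposited table, and all 41 passed the filter on low counts. For 5 of them, Sypl, Vamp2, Snap25, Cplx2 and Napb, the table gave no matching symbol and the identifier alone placed the gene.

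RNA was sequenced from the nucleus accumbens, the ventral part of the striatum, of male C57BL/6 mice. The groups were exposed for 4 days to arecoline, the betel nut alkaloid that activates muscarinic and some nicotinic acetylcholine receptors, to caffeine, an adenosine receptor antagonist, to nicotine, an agonist of nicotinic acetylcholine receptors, or to saline as the control. Each group had 4 libraries, made with an oligo-dT primed, template-switching reverse transcription followed by amplification. All groups share the strain and sex and carry no stated genotype, while the doses, the route, the ages and the number of mice behind a library are not stated in the labels, so p-values measure the spread between libraries, which may be partly technical.

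In the vesicle cycle, synapsins tether vesicles to each other, Rab3 and the active zone scaffolds Bassoon, Piccolo and RIM bring them to the release site, and Munc13 primes them there. The vesicle SNARE synaptobrevin (Vamp) pairs with the membrane SNAREs syntaxin and SNAP-25, complexins clamp and assist that complex, and synaptotagmins sense the calcium that triggers fusion. The ATPase NSF and its SNAP adaptors then take the complex apart, and dynamin, amphiphysin, endophilin and synaptojanin recover the membrane. In the striatum most neurons are GABAergic medium spiny neurons, and their terminals share the tissue with those of cortical, thalamic and dopaminergic axons whose cell bodies, and most of whose mRNA, lie elsewhere.

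The libraries held between 9038454 and 24315085 estimated counts, with a median of 14940645. Medium spiny neuron markers differed widely between libraries: the summed level of 12 such markers ran over 604 to 9281 CPM (estimated counts scaled to library size) with arecoline, 669 to 1932 CPM with caffeine, 963 to 1473 CPM with nicotine and 1968 to 9259 CPM with saline. Drd2, which encodes the D2 dopamine receptor, was at 0.199 and 0.575 CPM in arecoline libraries 1 and 4, against 46.8 and 42.8 CPM in arecoline libraries 2 and 3. It was at 0.871, 0.621, 1.28 and 6.63 CPM in caffeine libraries 1 to 4, 2.56 to 6.12 CPM with nicotine and 4.83 to 58.5 CPM with saline. Drd2 was thus nearly absent from some libraries labelled nucleus accumbens, in the caffeine as in the arecoline group. Other markers of the list were mixed in arecoline libraries 1 and 4. Adora2a was also low there, at 3.44 and 1.31 CPM, while Ppp1r1b stood at 94.0 and 114 CPM and Penk at 187 and 143 CPM. Arecoline libraries 2 and 3 and saline library 3 carried the highest medium spiny neuron levels, and nicotine library 2 had 337 CPM of Omp, a marker of olfactory sensory neurons, against at most 27.7 CPM in the other libraries. Counts of calls among the 41 genes are also given without these 4 libraries, which leaves 2 arecoline, 4 caffeine, 3 nicotine and 3 saline libraries. The arecoline libraries then left are 1 and 4, with the lowest medium spiny neuron levels of all 16. Markers of cortical excitatory neurons summed to 307 to 742 CPM with arecoline, 891 to 1086 CPM with caffeine, 803 to 1004 CPM with nicotine and 190 to 713 CPM with saline, and oligodendrocyte markers to 4498 to 9595, 3456 to 5574, 3711 to 5977 and 7270 to 8428 CPM in the same 4 groups. No marker of these lists was at 0 in any library. In such bulk tissue, fewer cells of a type and less RNA per cell cannot be told apart.

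Promoter sequences are shown for 5 genes on which the results turn: Syn1 and Syngr1, which were higher after caffeine, Synpr, which differed among the groups, and Stx1a and Sv2c, which ran in opposite directions across libraries. Each covers 250 bases before and 50 bases after the gene's start (RefSeq, GRCm38.p6), 5′ to 3′ on the gene's strand, with matched motifs in capitals.
Syn1, chrX:20920869-20921168, minus strand: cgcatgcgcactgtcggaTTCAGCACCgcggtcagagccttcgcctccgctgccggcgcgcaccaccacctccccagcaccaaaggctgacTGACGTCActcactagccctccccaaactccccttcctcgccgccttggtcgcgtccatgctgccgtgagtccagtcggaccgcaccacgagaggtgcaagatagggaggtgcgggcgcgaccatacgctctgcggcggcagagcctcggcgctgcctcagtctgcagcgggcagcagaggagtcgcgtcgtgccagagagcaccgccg
Syngr1, chr15:80091084-80091383, plus strand: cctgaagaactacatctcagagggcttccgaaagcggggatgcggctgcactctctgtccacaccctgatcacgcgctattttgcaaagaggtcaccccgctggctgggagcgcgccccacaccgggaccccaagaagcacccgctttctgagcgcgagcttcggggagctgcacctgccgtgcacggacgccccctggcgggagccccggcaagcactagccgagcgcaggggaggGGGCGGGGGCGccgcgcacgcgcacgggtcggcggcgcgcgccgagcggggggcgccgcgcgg
Synpr, chr14:13284530-13284829, plus strand: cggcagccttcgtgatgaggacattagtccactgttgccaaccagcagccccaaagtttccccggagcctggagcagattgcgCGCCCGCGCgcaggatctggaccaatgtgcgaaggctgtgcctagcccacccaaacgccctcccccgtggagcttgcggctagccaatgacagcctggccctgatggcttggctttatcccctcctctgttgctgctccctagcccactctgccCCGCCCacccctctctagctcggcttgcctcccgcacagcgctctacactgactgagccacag
Stx1a, chr5:135023232-135023531, plus strand: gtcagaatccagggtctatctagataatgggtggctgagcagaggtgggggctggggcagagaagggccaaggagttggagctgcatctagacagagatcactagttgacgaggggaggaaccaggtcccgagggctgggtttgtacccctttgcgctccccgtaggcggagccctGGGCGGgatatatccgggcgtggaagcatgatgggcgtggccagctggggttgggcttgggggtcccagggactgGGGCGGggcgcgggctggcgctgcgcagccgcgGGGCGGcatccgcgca
Sv2c, chr13:96132528-96132827, minus strand: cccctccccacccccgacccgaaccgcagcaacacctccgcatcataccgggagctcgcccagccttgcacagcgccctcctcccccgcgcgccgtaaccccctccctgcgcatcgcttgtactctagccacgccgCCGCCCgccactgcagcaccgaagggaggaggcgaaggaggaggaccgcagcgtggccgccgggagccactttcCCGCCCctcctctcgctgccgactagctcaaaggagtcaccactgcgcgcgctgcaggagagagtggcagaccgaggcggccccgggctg

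The motifs were searched on both strands. The GC box GGGCGG, or CCGCCC on the other strand, was found in Syngr1, Synpr, Stx1a and Sv2c. It was present in 28 of 44 windows belonging to the 32 genes of the machinery that the RefSeq table holds (63.6%), against 35.7% of all 32851 windows of this length. The EGR motif GCGNGGGCG was found in Syngr1, where it overlaps the GC box, and in Synpr, and in 8 of 44 windows (18.2%), against 5.55% of all windows. In Syn1 the capitals mark the cAMP response element TGACGTCA, held by 3 of 44 windows (6.82%) and 1.79% of all windows, and TTCAGCACC, the left part of RE1, which the neuronal repressor REST is known to bind. That partial site was in 2 of 44 windows (4.55%), Syn1 and Unc13a, and in 0.371% of all windows. Synpr has 2 start sites in the table, of which the outermost is shown. These matches describe the letters in the windows and say nothing of binding in these samples.

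Per length, the order of the genes was led by the core of the fusion apparatus. Snap25, the membrane SNARE SNAP-25, had the highest mean over the 16 libraries at 1216 FPKM (fragments per kilobase of transcript, scaled to depth). The main vesicle SNARE Vamp2 followed at 774 FPKM, the vesicle membrane protein synaptophysin (Syp) at 709 FPKM, the vesicle GTPase Rab3a at 643 FPKM and complexin 1 (Cplx1) at 355 FPKM. Neighbours in this order overlapped in their libraries: Vamp2 ran over 629 to 949 FPKM, Syp over 513 to 936 FPKM and Rab3a over 549 to 753 FPKM. The active zone genes were low by comparison, with Bassoon (Bsn) at 17.5 FPKM, Munc13-1 (Unc13a) at 16.8 FPKM, RIM1 (Rims1) at 13.8 FPKM and Piccolo (Pclo) at 10.4 FPKM. Munc13-2 (Unc13b) at 4.99 FPKM and synaptotagmin 2 (Syt2), a fast calcium sensor, at 1.96 FPKM closed the order. Most of the low active zone genes are long. Bsn has 15938 exon bases, Unc13a 12623, Pclo 22457, Unc13b 22746 and Rims1 7362, against 6791 for Snap25 and 3809 for Vamp2. The part of length in this order, with oligo-dT primed cDNA, was not tested.

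**Figure D1:**
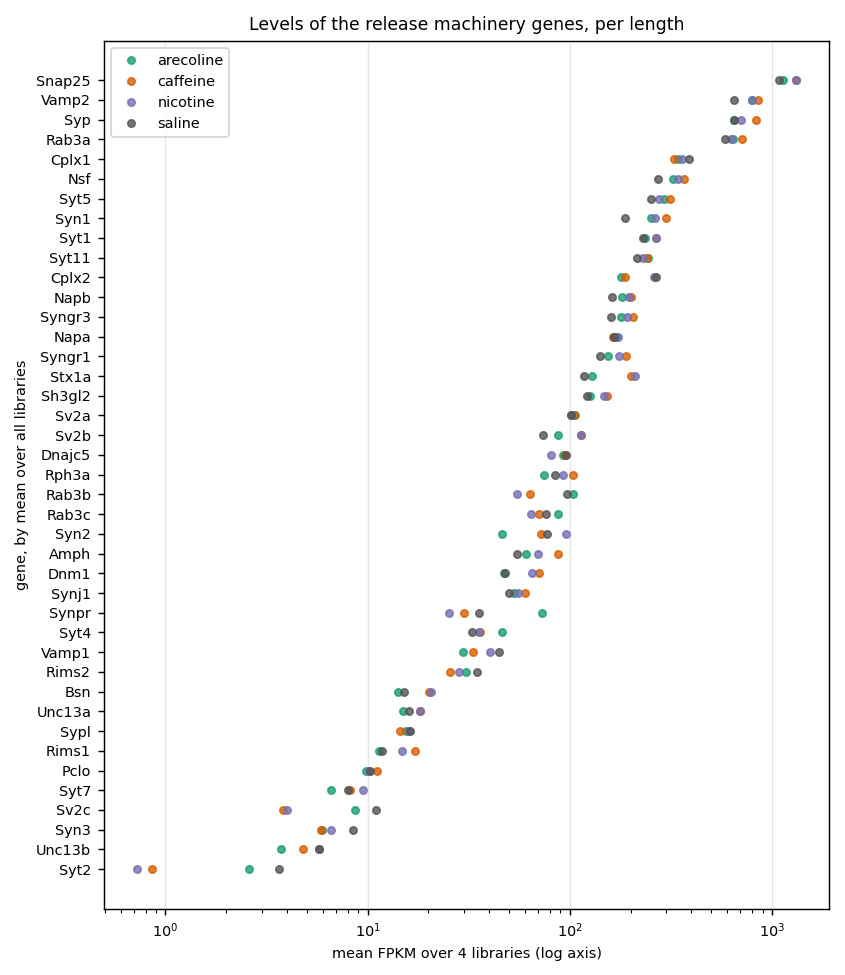
Mean FPKM of each of the 41 genes over the 4 libraries of a group, on a log axis, with genes ordered by their mean over all libraries and colours for arecoline, caffeine, nicotine and saline. Snap25 leads at a mean of 1216 FPKM over all libraries and Syt2 closes the order at 1.96 FPKM; the 4 group means lie close together for most genes and apart for Sv2c, Synpr and Syt2.

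The genes also differed in how steady they were. Between the highest and the lowest of the 16 libraries, the CPM level differed 23.8-fold for Syt2, 7.52-fold for Sv2c, 5.63-fold for the vesicle protein synaptoporin (Synpr) and 5.47-fold for syntaxin 1A (Stx1a). The same ratio was 1.28 for Syt11, a synaptotagmin that does not bind calcium, and 1.33 for Napa, which encodes the adaptor alpha-SNAP. Summed over all 41 genes, the level was 19572 ± 958 CPM with arecoline, 22597 ± 1231 CPM with caffeine, 21868 ± 2129 CPM with nicotine and 18991 ± 1420 CPM with saline (SD, n = 4 each). Every caffeine library, at 21257 to 24138 CPM, lay above every saline library, at 16935 to 20069 CPM. The sum of 10 general neuronal markers was also higher, though barely apart: 4964 to 5386 CPM with caffeine and 4053 to 4952 CPM with saline. These markers were mixed: Uchl1 ran over 589 to 792 CPM with caffeine and 346 to 572 CPM with saline. Nefl ran the other way, over 480 to 630 CPM with caffeine and 647 to 846 CPM with saline. The part of these markers in the summed level was not tested. For the 41 genes, the arecoline libraries, at 18269 to 20399 CPM, and the nicotine libraries, at 18704 to 23274 CPM, overlapped with saline. Library 2 was the lowest of the nicotine group in Syp, at 1489 CPM against 1978 to 2028 CPM in the other nicotine libraries.

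**Figure D2:**
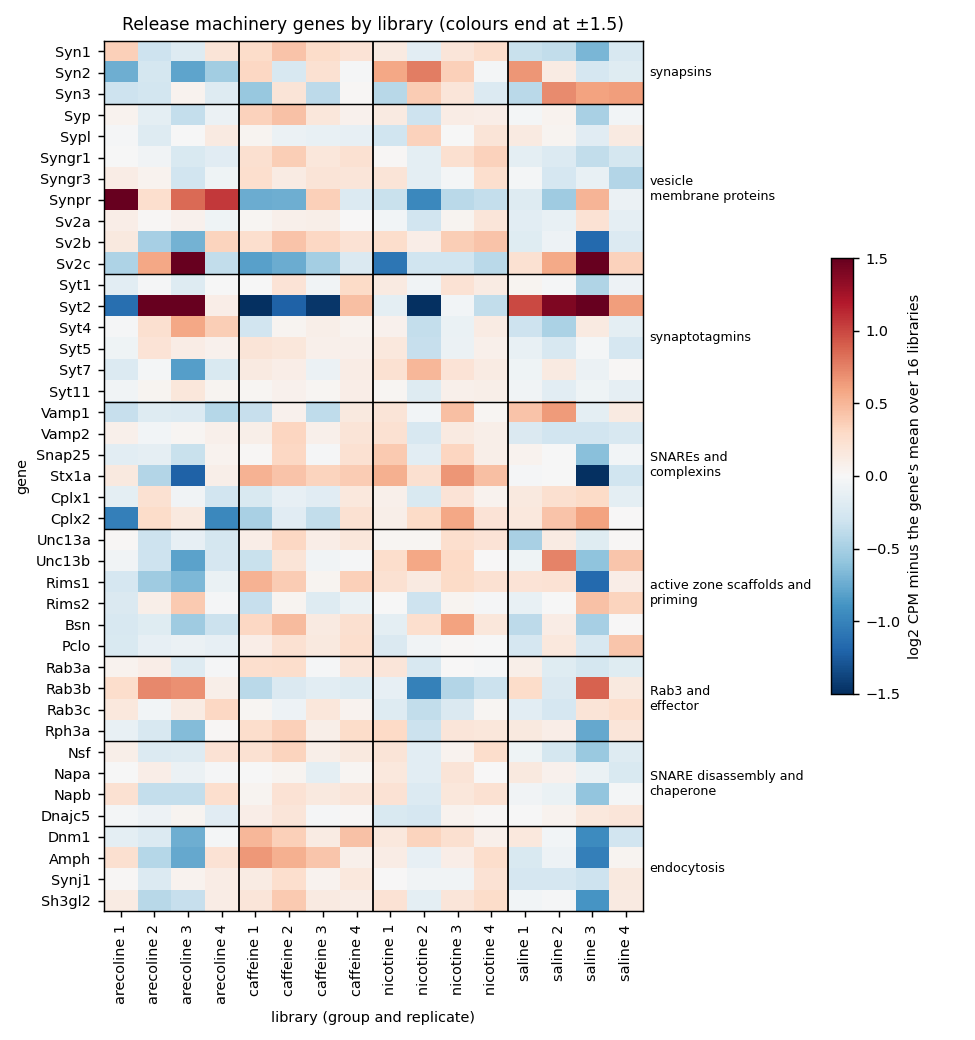
Each gene's log2 CPM in each of the 16 libraries minus the gene's mean over all libraries, with genes in rows by role, libraries in columns by group and colours that end at 1.5 in either direction. Saline library 3 stands out as low in Stx1a (96.7 CPM) and Sv2b (228 CPM) and high in Sv2c (177 CPM), and Synpr is high in the arecoline columns.

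Caffeine against saline gave the most calls. Of the 41 genes, 3 rose and 0 fell at an adjusted p under 0.05 (edgeR quasi-likelihood F test on counts, Benjamini-Hochberg over 14674 genes): Syn1, Syngr1 and Vamp2. That is 7.32% of the machinery, against 4.08% of all genes tested, of which 2% rose (293 genes) and 2.09% fell (306 genes). At an unadjusted p under 0.05 the count was 21 of 41 (51.2%), of which 15 were higher and 6 lower, against 24.6% of all genes. The fold change was above 0 for 27 genes (65.9%) and below 0 for 14, against 47.9% above 0 among all genes, and its median was 0.23 on the log2 scale, against -0.02 over all genes.

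Syn1, on chromosome X (20860511 to 20921004, minus strand, mm10), encodes synapsin I, the vesicle-tethering phosphoprotein of the terminal. Its level was 980.5, 1088, 981 and 929 CPM in caffeine libraries 1 to 4, against 643, 624, 503 and 683 CPM in saline libraries 1 to 4. All 4 caffeine libraries lay above all 4 saline libraries. Syn1 rose by 0.70 on the log2 scale (SE 0.14, edgeR adjusted p = 0.021).

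Syngr1, on chromosome 15 (80091334 to 80119501, plus strand), encodes synaptogyrin 1, a membrane-spanning protein of the vesicle. It had 749.98, 819, 713 and 744 CPM with caffeine, against 574, 549, 491 and 528 CPM with saline, again without overlap. Its log2 fold change was 0.50 (SE 0.10, edgeR adjusted p = 0.021).

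Vamp2, on chromosome 11 (69088490 to 69092384, plus strand), encodes synaptobrevin 2, the vesicle SNARE of fast release. It stood at 1838, 2163, 1825 and 1971 CPM with caffeine, against 1484, 1417, 1417 and 1464 CPM with saline. The groups did not overlap, and the saline libraries lay close together. The log2 fold change of Vamp2 was 0.43 (SE 0.10, edgeR adjusted p = 0.026).

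**Figure D3:**
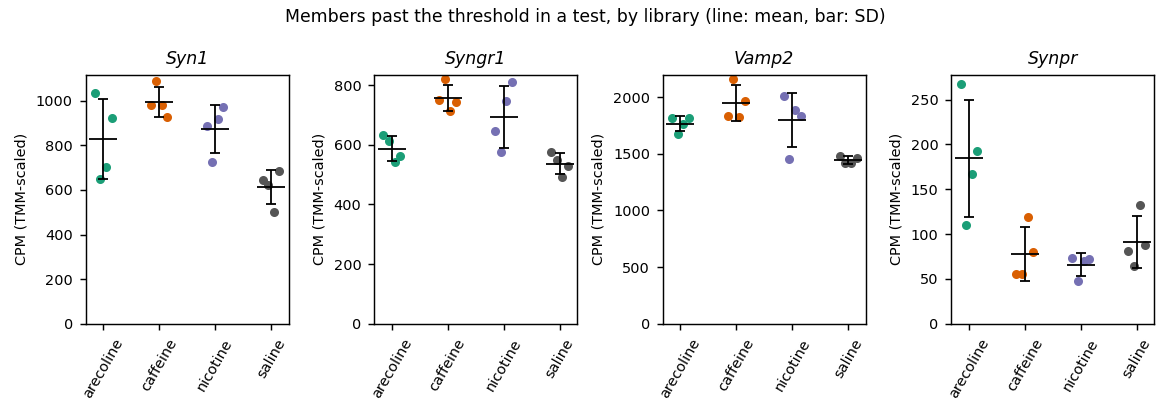
CPM (TMM-scaled) of Syn1, Syngr1, Vamp2 and Synpr in each library of the 4 groups, with the mean as a line and the SD as a bar; axes start at 0. For Syn1, Syngr1 and Vamp2 the 4 caffeine libraries lie above the 4 saline libraries, and for Synpr the arecoline libraries reach 267 CPM.

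These 3 calls did not hold under every setting. None of the 3 passed when saline library 2, caffeine library 1 or caffeine library 2 was left out, with log2 fold changes of 0.71, 0.71 and 0.66 for Syn1 and edgeR adjusted p = 0.063, 0.083 and 0.070 for it. In those fits only 0.384%, 0.155% and 0.329% of all genes passed, in that order. Vamp2 also missed the threshold without caffeine library 4 (edgeR adjusted p = 0.051). The count of genes that passed was 9 without saline library 1, against 6.7% of all genes. It was 6 without arecoline library 3 or nicotine library 2, against 5.27% and 5.81% of all genes. With a medium spiny neuron score, the mean centred log2 CPM of the 12 markers in each library, added to the fit, the log2 fold changes were 0.47 for Syn1, 0.47 for Syngr1 and 0.41 for Vamp2, and the edgeR adjusted p were 0.074, 0.074 and 0.081. With an oligodendrocyte score in its place they were 0.47, 0.53 and 0.51, at edgeR adjusted p = 0.642, 0.595 and 0.594. Over all genes 0.307% passed with the medium spiny neuron score and 0% with the oligodendrocyte score, against 4.08% with neither. The medium spiny neuron scores ran over -1.47 to 0.29 with caffeine and 0.34 to 2.76 with saline. As neither these scores nor the oligodendrocyte marker sums overlapped between caffeine and saline, the fits tell score and compound apart poorly. Cortical excitatory marker sums did not overlap either, at 891 to 1086 CPM with caffeine and 190 to 713 CPM with saline. No score of them was fitted. Without the 4 libraries that stood apart, 13 of the 41 genes passed the threshold, these 3 included, against 10% of all genes in that fit.

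Among the genes that did not pass after caffeine, the smallest p-values belonged to Nsf and Syngr3 on the higher side and to Sv2c and Syt2 on the lower side. Nsf, the ATPase that disassembles SNARE complexes, had 1461, 1571, 1329 and 1381 CPM with caffeine, against 1190, 1039, 847 and 1092 CPM with saline (log2 fold change 0.46, edgeR adjusted p = 0.051). Syngr3, synaptogyrin 3, had 438, 399.6, 417 and 414 CPM with caffeine, against 358, 308, 338 and 269 CPM with saline (0.39, edgeR adjusted p = 0.062). In neither gene did the groups overlap.

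Sv2c, the SV2 isoform that is enriched in basal ganglia, had 28.3, 29.7, 35.1 and 42.9 CPM with caffeine, against 58.2, 73.7, 177 and 63.4 CPM with saline. Every caffeine library lay below every saline library, and saline library 3 stood far above the others. The log2 fold change was -1.45 (SE 0.43, edgeR adjusted p = 0.063), and -0.94 without saline library 3. Syt2 had 2.42, 2.95, 2.48 and 9.32 CPM with caffeine, against 13.6, 17.97, 25.5 and 10.5 CPM with saline, at -1.97 on the log2 scale (SE 0.60, edgeR adjusted p = 0.070). These groups did not overlap either, although caffeine library 4 came close to saline library 4.

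In all, the 4 caffeine libraries lay above the 4 saline libraries for 13 genes (31.7%), against 8.22% of all genes, and below them for 2 genes (4.88%), against 7.82% of all genes. Beside those described, the 13 held the membrane proteins Syp and Sv2b, the synaptotagmins Syt5 and Syt11, the SNARE Stx1a, the scaffold Bsn, the adaptor Napb and the endocytic protein amphiphysin (Amph). Syp had a log2 fold change of 0.37 (edgeR adjusted p = 0.108), Stx1a of 0.80 (adjusted p = 0.130) and Bsn of 0.46 (adjusted p = 0.090). The calcium sensor Syt1 stood at 0.23 (edgeR adjusted p = 0.222), Snap25 at 0.27 (0.270) and Pclo at 0.13 (0.520).

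By role, the 4 endocytosis genes were the most even after caffeine, all above 0 with a median log2 fold change of 0.47 and none called. All 4 were also above 0 after nicotine (median 0.33), and 3 of them after arecoline (median of the 4, 0.09). After caffeine the other roles were less even. The 6 synaptotagmins had 5 above 0 and 1 below, the 6 active zone genes 4 and 2, the 4 Rab3 genes 3 and 1, and the 4 disassembly genes 2 and 2, with no call in any of these roles. The 6 SNAREs and complexins divided into 3 above 0 and 3 below: Vamp2, Snap25 and Stx1a were above, while Vamp1, Cplx1 and Cplx2 were below. Among the Rab3 genes, Rab3b had 78.9, 89.2, 93.4 and 91.3 CPM with caffeine, against 126, 89.6, 192 and 115 CPM with saline (log2 fold change -0.57, edgeR adjusted p = 0.121). The 3 synapsins did not move as one: beside Syn1, Syn2 stood at -0.05 (edgeR adjusted p = 0.909) and Syn3 at -0.61 (0.128). The value of Syn3 is uncertain, because 14.1% of its exon bases overlap Timp3 on the opposite strand and the labels do not say whether counting used the strand. Opposite-strand genes that are not in the table also cover 16.8% of the exon bases of Syp and 14.5% of those of Syt4, so their values carry the same limit.

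**Figure D4:**
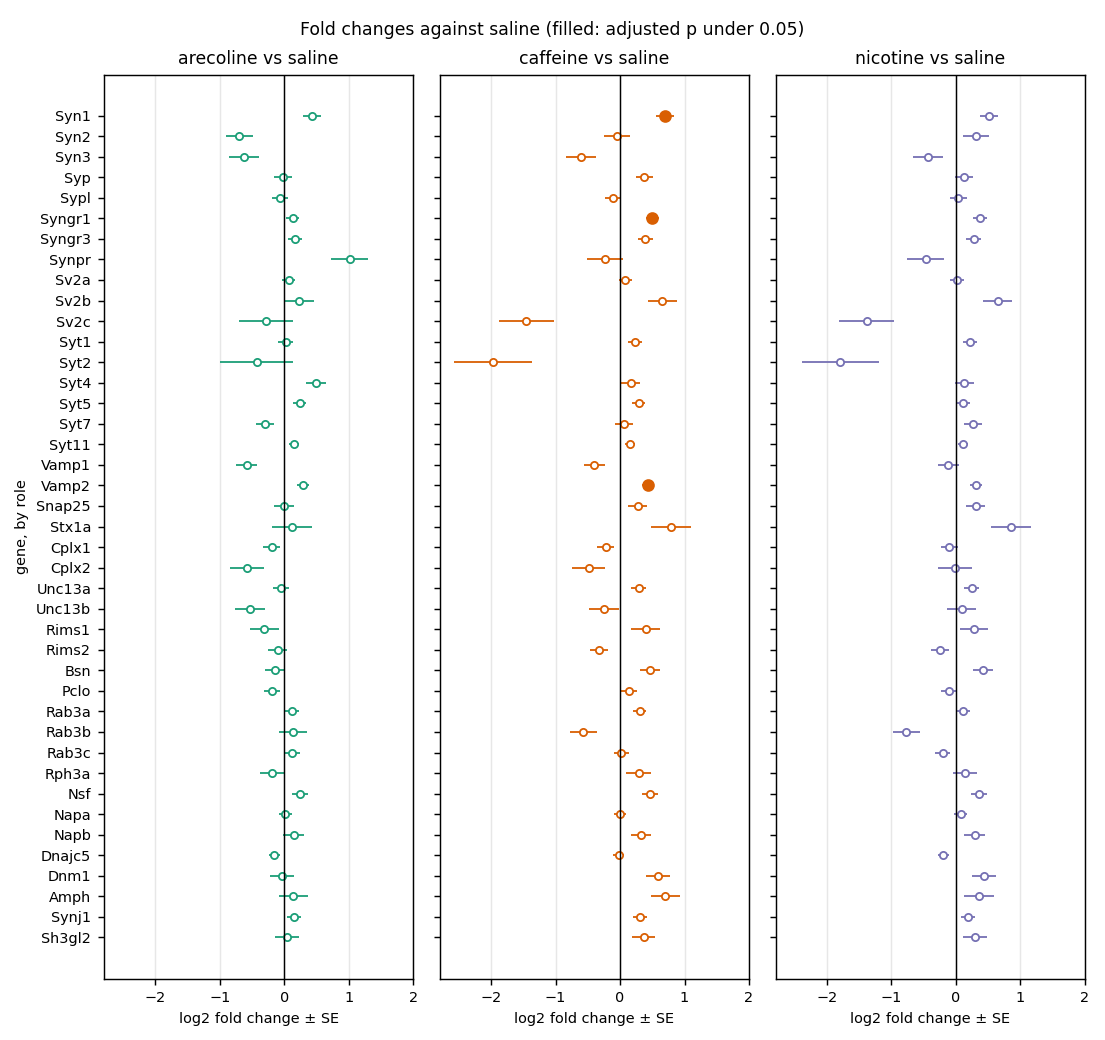
Log2 fold change with its SE for each of the 41 genes against saline in 3 panels, arecoline, caffeine and nicotine, with filled points where the edgeR adjusted p was under 0.05. The filled points are Syn1, Syngr1 and Vamp2 after caffeine, at 0.70, 0.50 and 0.43; the longest bars belong to Sv2c and Syt2.

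After arecoline, 0 of the 41 genes passed the threshold in edgeR, against 0.0136% of all genes (2 genes). At an unadjusted p under 0.05 there were 11 (26.8%, against 15.7% of all genes), 5 higher and 6 lower. DESeq2 called 3, Syn2, Synpr and Vamp1, against 3.12% of all genes, and limma on FPKM values called 0, against 0.0204%, with either pseudocount. Without the 4 libraries that stood apart edgeR called 7, against 6.39% of all genes. The fold changes were above 0 for 21 genes (against 50.8% of all genes) and below 0 for 20, with a median of 0.02 against 0.004 over all genes on the log2 scale.

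Synpr stood out among them. Synaptoporin is a synaptophysin relative found in subsets of terminals, and its gene had 267, 111, 167 and 193 CPM with arecoline, against 81.2, 64.1, 132 and 87.5 CPM with saline. Arecoline library 2 lay below saline library 3, and the other 3 arecoline libraries lay above all saline libraries. The log2 fold change was 1.01 (SE 0.29, edgeR adjusted p = 0.115), and it was 1.57 without the 4 libraries that stood apart (edgeR adjusted p = 0.0042). The last value compares arecoline libraries 1 and 4 alone, with medium spiny neuron scores of -1.83 and -1.71, with saline libraries at 0.34 to 0.75, a wider gap than between the full groups. Gad1, the GABA-synthesizing enzyme, stood beside it at 633, 538, 694 and 579 CPM with arecoline, against 438, 359, 729.9 and 383 CPM with saline. Calb2, which encodes the interneuron protein calretinin, was at 315, 80.4, 57.7 and 246 CPM with arecoline, against 90.0, 55.8, 40.7 and 136 CPM with saline. The 8 interneuron markers summed to 1643 to 1896 CPM with arecoline and 1158 to 1741 CPM with saline, and their part in the Synpr difference was not tested. Gad1 and Calb2 were chosen after their values were seen, and other markers of the list were level or lower: Gad2 averaged 387 CPM with arecoline and 401 CPM with saline, Pvalb 14.2 and 16.5 CPM, and Npy 193 and 188 CPM in the same order.

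Syt4, a synaptotagmin of dense-core vesicles that does not bind calcium in mammals, had 146, 174, 219 and 189 CPM with arecoline, against 118, 106, 162 and 132 CPM with saline. The groups overlapped, and the log2 fold change was 0.49 (SE 0.15, edgeR adjusted p = 0.137). Syn2 and Vamp1 were the lowest in p on the other side, each with no overlap between the groups. Synapsin II (Syn2) had 146, 202, 140.1 and 169.8 CPM with arecoline, against 386, 266, 204 and 214 CPM with saline (-0.70, SE 0.21, edgeR adjusted p = 0.128).

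Vamp1, the vesicle SNARE closest to Vamp2, had 81.9, 91.2, 90.0 and 77.3 CPM with arecoline, against 139.8, 162, 94.3 and 114 CPM with saline (-0.58, SE 0.16, edgeR adjusted p = 0.112). The 4 arecoline libraries of Vamp2, at 1813, 1678, 1760 and 1814 CPM, lay above its saline libraries (log2 fold change 0.29, edgeR adjusted p = 0.165), so the 2 vesicle SNAREs stood on opposite sides of saline. With Syt11, Vamp2 made up the 2 genes without overlap on the higher side (4.88%, against 3.26% of all genes), and Syn2 and Vamp1 the 2 on the lower side (4.88%, against 3.76%). All 6 active zone genes had fold changes below 0 after arecoline, from -0.54 to -0.05 on the log2 scale, and 0 of them passed the threshold. Below 0 lay 20 of all 41 genes. The 18 other active zone genes listed did not share the direction, with 10 above 0 and 8 below.

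Within the arecoline group the libraries divided as they did for the medium spiny neuron markers. Cplx2, which encodes complexin 2, was at 529 and 551 CPM in libraries 1 and 4, against 1305 and 1192 CPM in libraries 2 and 3. Sv2c was at 36.2 and 38.6 CPM in libraries 1 and 4, against 74.6 and 156 CPM in libraries 2 and 3, and Stx1a at 371 and 357 CPM, against 247 and 144 CPM. Arecoline minus saline for such genes therefore depended on the library left out, with a range of -0.90 to 0.23 for Sv2c and of -0.15 to 0.34 for Stx1a on the log2 scale. The other genes named throughout did not pass after arecoline: Snap25 at -0.005 (edgeR adjusted p = 0.992), Syp at -0.02 (0.965), Syt1 at 0.02 (0.948), Rab3b at 0.13 (0.805), Bsn at -0.14 (0.692), Pclo at -0.19 (0.485), Syt2 at -0.43 (0.758) and Syn1 at 0.43 (0.161).

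After nicotine, edgeR called 0 of the 41 genes and 0 of all genes (0%). At an unadjusted p under 0.05 there were 13 (31.7%, against 12.2% of all genes), 9 higher and 4 lower. DESeq2 called 0 of the 41, against 0.729% of all genes, and limma on FPKM values 0, against 0% with either pseudocount. Above 0 lay 29 genes (70.7%, against 53.3% of all genes), and the median log2 fold change was 0.13, against 0.02 over all genes. Without the 4 libraries that stood apart, 4 genes passed, against 0.322% of all genes: Syn1, Sv2b, Sv2c and Stx1a. Each of them is also among the genes with a slope on the medium spiny neuron score, given below. That score ran over -0.96 to 0.005 with nicotine and 0.34 to 2.76 with saline. As neither it nor the oligodendrocyte and cortical marker sums overlapped between nicotine and saline, they and the compound are told apart poorly.

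Syn1 had 886, 724, 916 and 972 CPM with nicotine, against the saline values of 503 to 683 CPM given above, and all 4 nicotine libraries were higher (log2 fold change 0.51, edgeR adjusted p = 0.239). Syngr1 had 645, 575, 748 and 809 CPM with nicotine, the lowest just above the highest saline library at 574 CPM (0.37, edgeR adjusted p = 0.239). Sv2b, the SV2 isoform of many excitatory terminals, and Stx1a were the other genes with every nicotine library above saline, 4 in all (9.76%, against 3.84% of all genes). Stx1a had 483, 395, 529 and 458 CPM with nicotine, against 329.8, 332, 96.7 and 272 CPM with saline, the largest positive fold change among the 41 genes at 0.86 on the log2 scale (SE 0.31, edgeR adjusted p = 0.299).

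On the lower side, Rab3b had 95.4, 51.7, 76.7 and 83.2 CPM with nicotine, against 126, 89.6, 192 and 115 CPM with saline. Nicotine library 1 lay above saline library 2, so the groups overlapped (-0.77, SE 0.22, edgeR adjusted p = 0.239). Sv2c had 23.6, 40.7, 40.6 and 37.8 CPM with nicotine, all below the lowest saline library at 58.2 CPM (-1.39, SE 0.43, edgeR adjusted p = 0.244). Syt2, at 6.18, 1.07, 6.62 and 5.31 CPM with nicotine, was also below every saline library (-1.79, SE 0.60, edgeR adjusted p = 0.280), and these 2 genes are 4.88% of the machinery, against 3% of all genes. Of the other genes named throughout, Vamp2 stood at 0.32 (edgeR adjusted p = 0.239), Bsn at 0.41 (0.319), Snap25 at 0.31 (0.426), Syt1 at 0.22 (0.454), Syp at 0.13 (0.737), Syt4 at 0.13 (0.765), Pclo at -0.11 (0.753), Vamp1 at -0.12 (0.807) and Synpr at -0.47 (0.532).

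The 3 comparisons above share the saline libraries, so the compounds were also compared with each other. The labels give no doses for them. In edgeR, 0 of the 41 genes passed in arecoline against caffeine (0% of all genes), in arecoline against nicotine (0.0886% of all genes, of which 0.0204% were higher with arecoline) and in caffeine against nicotine (0%). At an unadjusted p under 0.05 the counts were 17 (against 15.8% of all genes), 17 (against 18.2%) and 0 (against 9.3%), and DESeq2 called 5 (against 2.59% of all genes), 5 (against 4.15%) and 0 (against 0.0341%). The 5 DESeq2 calls were Syngr1, Synpr, Bsn, Rab3b and Dnm1 in arecoline against caffeine, and Syn2, Synpr, Syt7, Bsn and Rab3b in arecoline against nicotine; as these genes and those of the next paragraph were picked for their values, they are given as a description.

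Arecoline minus nicotine held the smallest p-values between compounds. Synpr had 267, 111, 167 and 193 CPM with arecoline, against 73.8, 47.4, 70.4 and 72.1 CPM with nicotine, without overlap (log2 fold change 1.48, SE 0.29, edgeR adjusted p = 0.053). Syn2 had 140.1 to 202 CPM with arecoline, against 239 to 413 CPM with nicotine, also without overlap (-1.01, SE 0.21, edgeR adjusted p = 0.056). Rab3b, at 111 to 172 CPM with arecoline and 51.7 to 95.4 CPM with nicotine, stood at 0.90 (edgeR adjusted p = 0.066). Syt7, a slow, high-affinity calcium sensor, had 29.8 to 51.9 CPM with arecoline and 57.4 to 74.6 CPM with nicotine (-0.56, edgeR adjusted p = 0.068). Over the 41 genes the median log2 difference was -0.18 for arecoline minus caffeine, with 10 genes above 0 (24.4%, against 52.6% of all genes). It was -0.11 for arecoline minus nicotine, with 12 above 0 (29.3%, against 48.4%), and 0.05 for caffeine minus nicotine, with 27 above 0 (65.9%, against 46.3%).

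A joint test for any difference among the 4 groups called 1 of the 41 genes, Synpr (edgeR F = 11.5, adjusted p = 0.043), against 1.14% of all genes, and 21 at an unadjusted p under 0.05 (51.2%, against 23.4%). Synpr averaged 184 ± 64.9 CPM with arecoline, 77.6 ± 29.9 CPM with caffeine, 65.9 ± 12.4 CPM with nicotine and 91.3 ± 29.2 CPM with saline (SD, n = 4 each), so the arecoline group was the high one. The caffeine libraries, at 55.4, 56.0, 119 and 80.3 CPM, overlapped with saline (log2 fold change -0.23, edgeR adjusted p = 0.635). DESeq2 called 13 genes in this test, against 11.4% of all genes, and limma on FPKM values 0, against 0.123% and 0.204% at pseudocounts 1 and 0.1. With the medium spiny neuron score in the fit, edgeR called 2 in the joint test, Synpr and Cplx2, against 0.559% of all genes. When single libraries were left out in turn, Synpr passed without saline library 3, arecoline library 2 or caffeine library 3 and missed the threshold without any other one.

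Paralogues that do the same work can be set side by side per length, as a description with no test. The ratio of Vamp1 to Vamp2 was 0.0335 to 0.0424 with arecoline, 0.0343 to 0.0454 with caffeine, 0.0450 to 0.0588 with nicotine and 0.0515 to 0.0892 with saline, so in every library Vamp2 was by far the higher, and the arecoline and caffeine libraries lay below all saline libraries. The ratio of Sv2c to Sv2a, the most widespread SV2 isoform, was 0.0453 to 0.156 with arecoline, 0.0290 to 0.0464 with caffeine, 0.0253 to 0.0520 with nicotine and 0.0696 to 0.165 with saline. The ratio of Sv2b to Sv2a ran the other way, at 0.537 to 1.19 with arecoline, 1.05 to 1.16 with caffeine, 1.07 to 1.18 with nicotine and 0.349 to 0.918 with saline. Caffeine and nicotine libraries thus held less Sv2c and more Sv2b per unit of Sv2a than any saline library, while arecoline libraries spanned both ranges. Cplx1 exceeded Cplx2 in every library, by 1.43 to 3.02 times with arecoline, 1.57 to 1.96 times with caffeine, 1.15 to 1.63 times with nicotine and 1.32 to 1.63 times with saline. Syn2 was below Syn1 throughout, at ratios of 0.130 to 0.286, 0.174 to 0.287, 0.231 to 0.556 and 0.287 to 0.578 in the same group order.

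The course of the genes across libraries was set against the medium spiny neuron score, a relation examined after the data had been seen. The score ran from -1.83 in arecoline library 1 to 2.76 in saline library 3. In an edgeR fit that kept the 4 group means and added the score, 10 of the 41 genes had a slope past the threshold (24.4%, against 10.6% of all genes), 4 upward (5.57% of all genes) and 6 downward (5.06%). Sv2c rose by 0.41 log2 units per unit of score (SE 0.06), Syt2 by 0.51 (SE 0.11), Cplx2 by 0.26 (SE 0.04) and Rab3b by 0.16 (SE 0.04), all at edgeR adjusted p of at most 0.0263. Stx1a fell by 0.26 (SE 0.06), Amph by 0.22 (SE 0.04), Sv2b by 0.21 (SE 0.04), the endophilin gene Sh3gl2 by 0.14 (SE 0.04), Napb by 0.13 (SE 0.03) and Syn1 by 0.11 (SE 0.03), with edgeR adjusted p between 0.0012 and 0.033. The slopes of Syngr1 and Vamp2 were -0.01 each (edgeR adjusted p = 0.869 and 0.904). The count was 6 without saline library 3 and 5 without arecoline library 3 and between 7 and 12 when any other single library was left out. The share of all genes in those fits is not given, so the counts do not show whether calls over all genes moved alike. Without the 4 libraries that stood apart it was 0 in edgeR, against 0.181% of all genes, with 4 of 41 at an unadjusted p under 0.05 (9.76%, against 4.52% of all genes). That fit no longer holds the 3 libraries at the high end of the score.

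**Figure D5:**
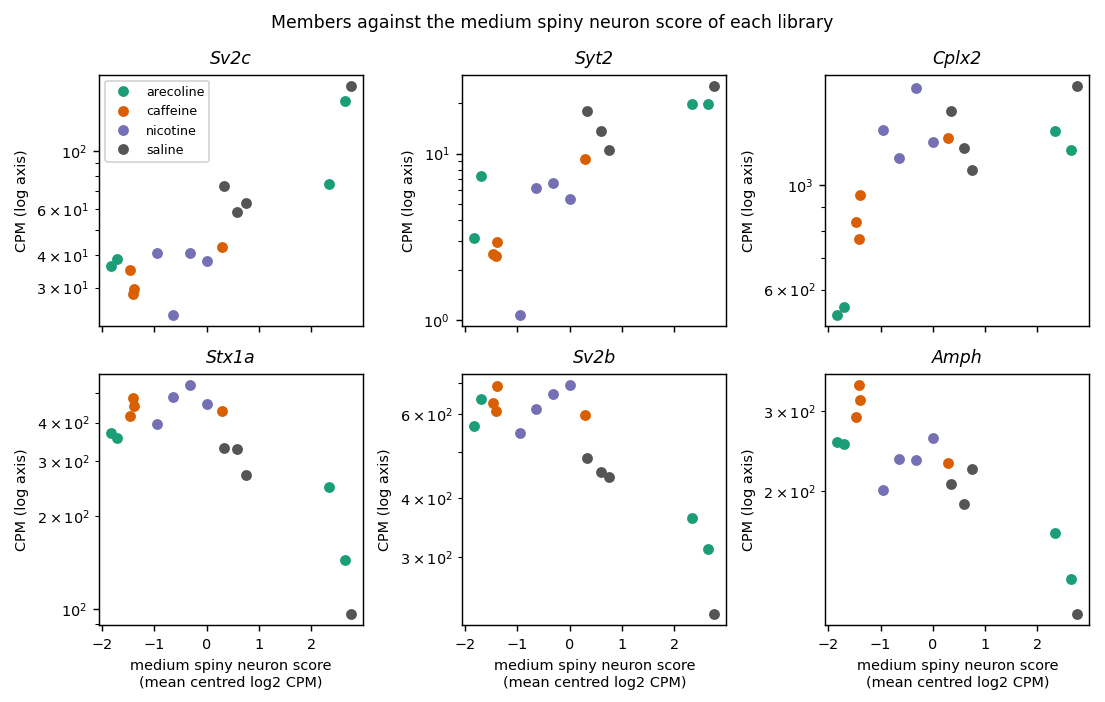
CPM on a log axis against the medium spiny neuron score of each of the 16 libraries, coloured by group, for Sv2c, Syt2, Cplx2, Stx1a, Sv2b and Amph. Sv2c, Syt2 and Cplx2 are higher and Stx1a, Sv2b and Amph are lower at the high end of the score, where arecoline libraries 2 and 3 (2.34 and 2.64) and saline library 3 (2.76) lie; without those 3 libraries and nicotine library 2, 0 genes had a slope past the threshold.

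Around these genes, 98 other genes of the presynaptic vesicle cycle were listed, and 96 of them were tested. After caffeine 7 rose and 2 fell (9.38%, against 4.08% of all genes), and the median log2 fold change of the 96 was 0.22. Pacsin1, a membrane-bending protein of endocytosis, had 536, 486, 465 and 458 CPM with caffeine, against 343, 349.8, 329.6 and 352 CPM with saline (0.50, SE 0.09, edgeR adjusted p = 0.015). Clta, clathrin light chain A, had 233, 214, 175 and 168 CPM with caffeine, against 151, 128, 115 and 142 CPM with saline (0.56, SE 0.11, edgeR adjusted p = 0.021). In both genes every caffeine library lay above every saline library. Of the 98 genes, 0 passed with the oligodendrocyte score in the fit or without saline library 2, caffeine library 1 or caffeine library 2. In those fits 0%, 0.384%, 0.155% and 0.329% of all genes passed, in that order. With the medium spiny neuron score 1 passed (against 0.307% of all genes), Doc2b, which is none of the 9. There were 3 without caffeine library 3 (against 2.74%) and 5 without nicotine library 3 (against 2.87%), Clta and Pacsin1 among them both times. There were 14 without saline library 1 (against 6.7%) and 19 without the 4 libraries that stood apart (against 10%), and DESeq2 called 21 (against 10.2%).

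On the lower side after caffeine were Syt6 and Snapin. Syt6, another synaptotagmin, had 8.37, 12.9, 23.7 and 25.9 CPM with caffeine, against 37.1, 25.9, 166 and 53.8 CPM with saline (-1.99, SE 0.53, edgeR adjusted p = 0.046). Snapin, a SNAP-25 binding protein that also acts in lysosome transport, had 53.8, 62.1, 66.1 and 74.1 CPM with caffeine, against 89.6, 84.2, 73.7 and 79.7 CPM with saline (-0.35, SE 0.10, edgeR adjusted p = 0.048). In both genes caffeine library 4 lay just above the lowest saline library, so the groups overlapped. The higher genes fell under 3 roles: 3 of 25 endocytosis genes, 3 of 10 tested vesicle membrane genes and 1 of 23 tested fusion genes, which also held both lower ones. No gene was called among 18 active zone genes, 6 vesicular transporters and 14 subunits of the vesicular proton pump, although all 14 pump genes had fold changes above 0, between 0.18 and 0.39 on the log2 scale. Against the same saline libraries, all 14 pump genes were also above 0 after nicotine (0.07 to 0.27), and 13 after arecoline (range of the 14, -0.03 to 0.29). After arecoline and after nicotine edgeR called 0 of the 96, against 0.0136% and 0% of all genes. At an unadjusted p under 0.05 there were 21 (against 15.7% of all genes) and 24 (against 12.2%), with median log2 fold changes of 0.08 and 0.12.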

How the data were processed

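The authors deposited 1 table with an estimated count and an FPKM value per gene and library, from oligo-dT primed cDNA of nucleus accumbens RNA. The build was mm10, and RSEM, StringTie 1.3.1, HISAT2, Bowtie2 2.2.8 and fastp 0.18.0 are the tools listed, per the submitters' processing notes. The labels do not say whether counting used the strand. Of the counts in a library, 86.6% to 90.4% were whole numbers.

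The estimated counts deposited by the authors were rounded and tested with edgeR 4.0.16 (R 4.3.3): filterByExpr, TMM scaling, quasi-likelihood F tests over all 16 libraries in 4 groups, and Benjamini-Hochberg adjustment over 14674 genes at 0.05. CPM values are on TMM-scaled library sizes. Levels of different genes are compared as FPKM deposited by the authors. Alternatives were DESeq2 1.42.0, its size factors in edgeR, no filter, limma 3.58.1 on log2(FPKM + 1) and log2(FPKM + 0.1), the 2 groups alone, a replicate block, marker scores as covariates, and single or 4 libraries left out. The tests were tried on simulated counts.

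The genes and lists were chosen with earlier results of these data known. Named for each comparison with saline were the genes past the threshold, the 2 others with the smallest p in each direction, and Syn1, Vamp2, Snap25, Stx1a, Syt1, Syp, Sv2c, Synpr, Rab3b, Syt2, Syt4, Vamp1, Bsn and Pclo; of the other vesicle cycle genes, the 2 smallest p past the threshold in each direction. Genes named in other places were chosen after their values were seen. Depth limited Syt2 most, whose lowest library held 10 counts, while the lowest library of every other gene held at least 173. No pair of replicates agreed within sampling noise. Of the other marker lists, olfactory sensory neuron markers summed to 37.2 to 77.0 CPM with arecoline, 73.0 to 114 with caffeine, 48.0 to 823 with nicotine and 36.7 to 71.5 with saline. Cholinergic markers summed to 1.32 to 93.7, 2.69 to 12.0, 5.03 to 8.54 and 20.7 to 86.7 CPM in the same order of groups, astrocyte markers to 4187 to 4959, 3310 to 5124, 4566 to 5727 and 4787 to 6619 CPM, microglial markers to 729 to 827, 676 to 902, 829 to 899 and 751 to 1042 CPM, and endothelial markers to 105 to 189, 112 to 193, 109 to 298 and 171 to 215 CPM. Pan neuronal markers summed to 4332 to 4755 CPM with arecoline and 4193 to 5143 CPM with nicotine. Interneuron markers summed to 1335 to 1674 CPM with caffeine and 895 to 1549 CPM with nicotine.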

Additional observations from a re-analysis of the deposited data

Results flagged for a closer look

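In 15 of 164 groups of 4 libraries (41 genes in 4 groups), the highest or lowest library stood apart from the other 3 by more than Dixon's 95% critical share of the range, which chance gives in about 1 in 20 groups. Saline library 3 accounted for 7 of them. It was low in Sv2b at 228 CPM (the others 444 to 485), Snap25 at 1543 CPM (2311 to 2467), Rims1 at 25.7 CPM (61.7 to 66.8), Rph3a, which encodes the Rab3 effector rabphilin, at 206 CPM (375 to 395) and Napb at 545.5 CPM (767 to 806). It was high in Sv2a at 531 CPM (409 to 423) and Sv2c at 177 CPM (58.2 to 73.7). This library also held the highest medium spiny neuron score, 2.76, and the part of that in these values was not tested.

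Nicotine library 2, which carried Omp, was low in Syp at 1489 CPM (1978 to 2028), Synpr at 47.4 CPM (70.4 to 73.8) and Napb at 710.4 CPM (927 to 966). Nicotine library 1 was low in Sv2c at 23.6 CPM (37.8 to 40.7). Caffeine library 4 was high in Syt2 at 9.32 CPM (2.42 to 2.95), and caffeine library 1 low in Syt4 at 120.8 CPM (151 to 156). Saline library 1 was low in Syn3 at 13.2 CPM (26.4 to 28.4), and saline library 4 was high in synaptojanin 1 (Synj1) at 327 CPM (239 to 248).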

How the results depend on the processing

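The number of the 41 genes past the threshold moved with several choices. Each percentage beside a count is the share of all genes past the threshold in the same fit. For caffeine against saline it was 3 (4.08%), and 11 in DESeq2 (10.2%), 6 with the 2 groups alone (5.68%) and 13 without the 4 libraries that stood apart (10%). It was 0 with the medium spiny neuron score (0.307%) and 0 with the oligodendrocyte score (0%), which was added after seeing the data. As single libraries were left out it was 0 to 9 (0.155% to 6.7%). For arecoline against saline it was 0 (0.0136%), and 3 in DESeq2 (3.12%) and 7 without the 4 libraries (6.39%). Leaving out single libraries it was 0 to 1 (0% to 1.33%). For nicotine against saline it was 0 (0%), and 4 without the 4 libraries (0.322%), with 0 to 0 leaving out single libraries (0% to 0.0269%). Arecoline against caffeine gave 0 (0%), and 5 in DESeq2 (Syngr1, Synpr, Bsn, Rab3b, Dnm1, against 2.59%) and 1 (Synpr, against 0.577%) without the 4 libraries. It gave 0 to 1 leaving out single libraries (0% to 0.451%). Arecoline against nicotine gave 0 (0.0886%), and 5 in DESeq2 (4.15%), 3 without the 4 libraries (1.89%) and 4 with the medium spiny neuron score (1.07%). It gave 0 to 4 leaving out single libraries (0.0134% to 2.01%). The joint test gave 1 (1.14%), and 13 in DESeq2 (11.4%), 0 in limma at either pseudocount (0.123% and 0.204%) and 9 without the 4 libraries (8.02%). It gave 2 with the medium spiny neuron score (0.559%) and 0 with the oligodendrocyte score (0.0136%). Leaving out single libraries it gave 0 to 3 (0.00672% to 2.36%). Slopes on the medium spiny neuron score gave 10 (10.6%), and 0 without the 4 libraries (0.181%), with 5 to 12 leaving out single libraries (share of all genes not given). Caffeine against nicotine gave 0 under every alternative. The cause of these changes was not tested.

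No pairing by replicate number was seen: deviations of same-numbered libraries correlated at -0.276 to 0.49, and 4 of 16 libraries correlated best with their own number. Differently numbered libraries correlated at -0.496 to 0.368. With ranges this wide the check cannot exclude a shared day or litter, of which the labels say nothing. With the replicate block the counts were 8 for caffeine against saline (against 6.79% of all genes), 1 for arecoline against saline (0.668%) and 0 for nicotine against saline (0.0136%). They were 1 for arecoline against caffeine (0.252%), 4 for arecoline against nicotine (1.49%) and 5 in the joint test (2.9%).

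Among the named genes, 1126 alternative values kept direction and side of the threshold, 42 came to pass it, 16 no longer passed and 38 turned in sign. After arecoline the turned values were Snap25 (0.0126 with no filter, 0.0753 and 0.0754 in limma at pseudocounts 1 and 0.1, 0.00396 with the 2 groups alone, 0.0037 with the replicate block), Stx1a (-0.064 and -0.15 with the medium spiny neuron and oligodendrocyte scores), Syt1 (-0.0613 without the 4 libraries) and Syt2 (0.0791 with the oligodendrocyte score). With the oligodendrocyte score Rab3b stood at 0.0883 after caffeine and Vamp1 at 0.069 after nicotine, and Pclo at 0.000486 after nicotine in limma at pseudocount 0.1. Leaving out single libraries, the log2 fold change ran over -0.14 to 0.0787 for Snap25, -0.15 to 0.34 for Stx1a, -0.90 to 0.23 for Sv2c, -0.12 to 0.0526 for Syp, -0.0759 to 0.0945 for Syt1 and -0.0035 to 0.38 for Rab3b after arecoline, -0.51 to 0.00376 for Synpr after caffeine, and -0.20 to 0.0362 for Pclo and -0.24 to 0.00419 for Vamp1 after nicotine.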
